A study of Mus musculus with 22 samples.

Results

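Whole hearts of Prdm16 conditional knockout (cKO) mouse embryos were set against whole hearts of littermate controls at embryonic day E13.5 by bulk RNA sequencing. The comparison rests on 6 of the 22 libraries of the series, chosen by their labelled tissue, 3 cKO and 3 control. The other 16 libraries are isolated left and right ventricles, 4 per genotype and chamber, and are used only to test where the whole heart differed from a ventricle. All embryos were of the C57BL/6 strain. The controls' genetic manipulation is labelled Mock, and the design text calls them littermates. The Cre driver, the deleted exons, the sex of the embryos and the number of hearts per library are not given in the sources used here, so the p-values measure the spread between these libraries.

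Prdm16 is a PR domain transcription factor that binds DNA through zinc fingers, best known for its role in brown fat and in blood and neural stem cells. In human patients, loss of PRDM16 has been linked to left ventricular noncompaction and dilated cardiomyopathy. At this stage the ventricular wall consists of an outer compact layer of dividing cardiomyocytes and inner trabeculae with a more mature conduction-like character, and the atria express a separate set of contractile and channel genes. A whole heart holds both atria, both ventricles, the outflow tract, the cushions, the epicardium and blood. Fewer cells of a type and less RNA per cell cannot be told apart in such a sample.

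Reads assigned to transcripts numbered 55033350 to 62004017 in the cKO libraries and 38590751 to 54152563 in the controls. Control 1 stood apart from the other 5 hearts. The number of genes expected to have at least 1 read at a common depth of 14486402 reads was computed for each library. It was 18977 in control 1, against 22822 to 23392 in the other 5 libraries. In control 1, 569 genes lay more than 2-fold outside the range of all 5 other libraries, 410 of them below and 159 above it, whereas each other library had 5 to 14 such genes. None of these 569 genes was called in the comparison below, where such a spread among the controls itself works against a call. Mitochondrial transcripts took 5.13% to 5.74% of reads in cKO hearts and 4.73% to 5.95% in control hearts, and haemoglobin transcripts 0.73% to 1.28% in cKO hearts and 0.83% to 1.06% in control hearts. Cardiomyocyte markers summed to 15350 to 16640 TPM in cKO hearts and 16460 to 17940 TPM in control hearts, where TPM is the transcript abundance scaled for length and depth, and liver and lung markers each summed to under 7 TPM in each library.

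Prdm16 lies on the minus strand of chromosome 4 (GRCm38, 154316125 to 154636873, gene ENSMUSG00000039410.16) and had 20.62, 19 and 22.28 CPM in cKO hearts and 45.29, 45.02 and 37.38 CPM in control hearts. CPM is the gene's read count scaled to the size of the library, with TMM factors. The groups did not overlap, and transcripts of the gene remained in every cKO heart. The log2 fold change was -1.04 (SE 0.09, edgeR adjusted p = 0.00192), and it was -1.0 (adjusted p = 0.00112) without control 1. How much of the remaining signal came from exons outside the deletion or from cells without it was not tested. Of the 11 measured genes of the PR domain family, Prdm16 was the only one called. Mecom, the closest paralog of Prdm16, had 102.2, 82.4 and 80.37 CPM in cKO hearts and 69.26, 72.98 and 76.88 CPM in control hearts (log2 0.27, adjusted p = 0.193).

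In the whole heart, 773 of 19160 genes tested differed between cKO and control at an adjusted p under 0.05 in edgeR's quasi-likelihood F test (4.03%). Of these, 376 rose (1.96%) and 397 fell (2.07%). The larger changes were mostly increases: 89 genes rose (0.465%) and 27 fell (0.141%) by more than 1 on the log2 scale. Without control 1 these were 153 (0.774%) and 43 (0.218%). The median log2 fold change of all genes tested was 0.015. In each of the 773 genes the 3 cKO libraries lay wholly above or wholly below the 3 controls, as they did in 13.8% (cKO above) and 12.9% (cKO below) of all genes tested.

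The count of calls depended on which hearts entered. Without control 1, 1292 of 19762 genes differed (6.54%), 649 of them higher (3.28%) and 643 lower (3.25%), and 765 of the 773 genes were among them, all with the same direction. The common biological coefficient of variation was 0.184 with control 1 and 0.107 without it. Leaving out cKO 1, cKO 2, cKO 3 or control 3 gave 238, 184, 211 or 282 genes, and leaving out control 2 gave 773 genes, of which 584 were among those called with all 6 libraries. In total 166 of the 773 genes were called in all 6 of these fits, and a call is termed held below when its gene was one of them. A call that is not held was lost at least once, and 467 of the 773 were called in at most 2 of the 6 fits. Counts rescaled by transcript length from the deposited TPM gave 133 genes, 84 higher and 49 lower, of which 128 were among the 773. Of the 773 genes, 9 had the opposite sign in these length-scaled counts. Of the called genes named here 83 were not called in them. Some held calls are among those lost, since held refers only to the fits that left out 1 library. On log2(TPM + 1), limma called 64 genes higher and 18 lower, and the fit of all 22 libraries called 803 higher and 1209 lower in the whole heart.

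**Figure D1:**
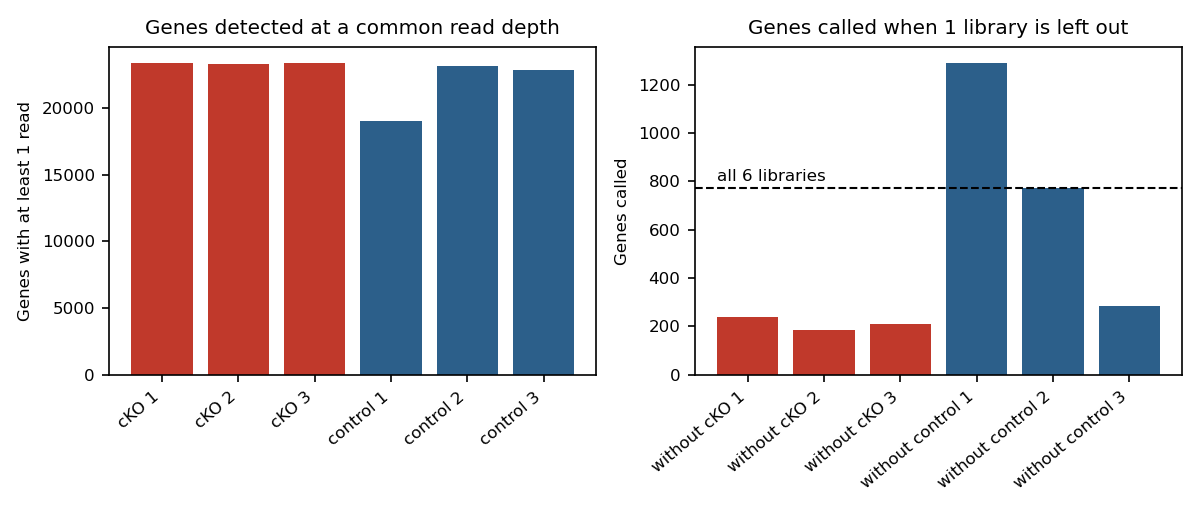
The left bars show the number of genes expected to have at least 1 read in each whole heart library at 14486402 reads. It was computed from the gene counts without drawing reads. The right bars show the number of genes called when each library was left out (edgeR, adjusted p under 0.05, dashed line at 773 for all 6 libraries). Red bars are cKO and blue bars control libraries. Control 1 has the fewest genes (18977), and leaving it out gives the most calls (1292).

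The largest increases included an intracellular calcium channel, the sarcomere proteins Mybphl and Myl1 and receptors of the nervous system. Ryr3 (chromosome 2), which encodes a ryanodine receptor for calcium release that is not the main cardiac one, had 146, 161.4 and 162.2 CPM in cKO hearts and 22.35, 32.93 and 28.21 CPM in control hearts (log2 2.49, SE 0.13, adjusted p = 1.28e-04). Tmem163 (chromosome 1), a zinc-binding membrane protein, had 45.67, 49.86 and 46.97 CPM in cKO hearts and 8.276, 7.413 and 9.683 CPM in control hearts (log2 2.49, SE 0.10, adjusted p = 4.38e-05). Alox8 (chromosome 11), an arachidonate lipoxygenase, had 17.98, 16.92 and 18.76 CPM in cKO hearts and 3.812, 2.556 and 3.259 CPM in control hearts (log2 2.48, SE 0.15, adjusted p = 3.19e-04). For each of these 3 genes the lowest cKO heart lay more than 4-fold above the highest control heart. Ppp1r17 (chromosome 6), a phosphatase inhibitor best known from cerebellar Purkinje cells, had 27.02, 26.04 and 26.01 CPM in cKO hearts and 5.378, 5.365 and 5.001 CPM in control hearts (log2 2.33, SE 0.08, adjusted p = 2.69e-05). Mybphl (chromosome 3), a myosin-binding protein of atrial and conduction cardiomyocytes, had 40.21, 39.64 and 34.6 CPM in cKO hearts and 8.302, 6.613 and 8.69 CPM in control hearts (log2 2.28, SE 0.12, adjusted p = 1.04e-04).

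Further genes among the 20 largest increases fell into a few kinds by known role. Receptors and guidance genes were Gfra2, a co-receptor for neurturin (log2 2.20), Ntsr1, a neurotensin receptor (1.81), and Epha4, an ephrin receptor (1.59). Membrane transport was represented by Cacna2d2, an accessory subunit of voltage-gated calcium channels (1.56), and Slc39a8, a zinc and manganese importer (1.56). Pcsk6, a proprotein convertase that processes TGF-beta family ligands and the natriuretic peptide convertase corin, had 107.7, 97.75 and 102.1 CPM in cKO hearts and 34.38, 26.94 and 32.44 CPM in control hearts (log2 1.72, SE 0.09, adjusted p = 1.45e-04). Myl1, a myosin light chain of fast skeletal muscle, had 107.2, 115.2 and 96.53 CPM in cKO hearts and 33.83, 32.46 and 36.67 CPM in control hearts (log2 1.63, SE 0.08, adjusted p = 9.46e-05). Tiam2 (1.84), Ildr2 (1.71), Trim54 (1.55), Hmcn2 (1.5), Dclk3 (1.5) and Fhad1 (1.48) completed the held increases, with Lyz2 described below. The remaining one, Xlr3b (1.69), was called in 2 of the 6 fits that left out 1 library, and it belongs to an X-linked family with near-identical copies among which reads may have been split. Hmcn2 was 0.15 on the log2 scale in length-scaled counts (adjusted p = 0.938). The held calls of Gfra2 and Fhad1 were lost there as well (adjusted p = 0.0518 and 0.0678).

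The 20 largest decreases were smaller, from -1.96 to -0.98 on the log2 scale, against 1.48 to 2.49 for the 20 largest increases. Mean levels in control hearts ran from 7.315 to 211.8 CPM for the decreases and from 2.428 to 101.1 CPM for the increases. Lrtm1 (chromosome 14), a leucine-rich repeat membrane protein, had 2.417, 2.606 and 3.262 CPM in cKO hearts and 11.15, 13.11 and 7.904 CPM in control hearts (log2 -1.96, SE 0.22, adjusted p = 0.00385). Tnni2 (chromosome 7), the fast skeletal inhibitory troponin, had 5.123, 4.47 and 5.611 CPM in cKO hearts and 17.8, 14.51 and 14.55 CPM in control hearts (log2 -1.62, SE 0.13, adjusted p = 0.00143). Perm1 (chromosome 4), a muscle regulator of oxidative metabolism that acts with PGC-1 and ERR factors, had 2.449, 2.226 and 2.839 CPM in cKO hearts and 6.396, 8.506 and 7.042 CPM in control hearts (log2 -1.55, SE 0.17, adjusted p = 0.00393). In all 3 genes the lowest control heart lay more than 2-fold above the highest cKO heart. Eppk1, an epiplakin that binds intermediate filaments, fell by 1.5 on the log2 scale (SE 0.13, adjusted p = 0.00185), and Gtsf1, known from the piRNA pathway of the germ line, fell by 1.47 (SE 0.18, adjusted p = 0.0054). Upp1, a uridine phosphorylase, fell by 1.15. Lmod3, a leiomodin that nucleates actin in striated muscle thin filaments, had 16.65, 17.37 and 20.86 CPM in cKO hearts and 40.52, 35.41 and 37.08 CPM in control hearts (log2 -1.04, SE 0.10, adjusted p = 0.00222). Aqp4, a water channel, fell by 0.99, Epn3, an endocytic adaptor, by 1.09, and Zdhhc23, a palmitoyltransferase, by 0.99. Of the 20 largest decreases 14 calls were held. In length-scaled counts the held call of Epn3 was lost (adjusted p = 0.104). The calls of Asb11 (-1.41), Ybx2 (-1.31), Nfe2l3 (-1.07), Ckm (-1.06) and Cenpv (-0.98) were lost in some of the fits without a cKO library or without control 2 or 3.

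**Figure D2:**
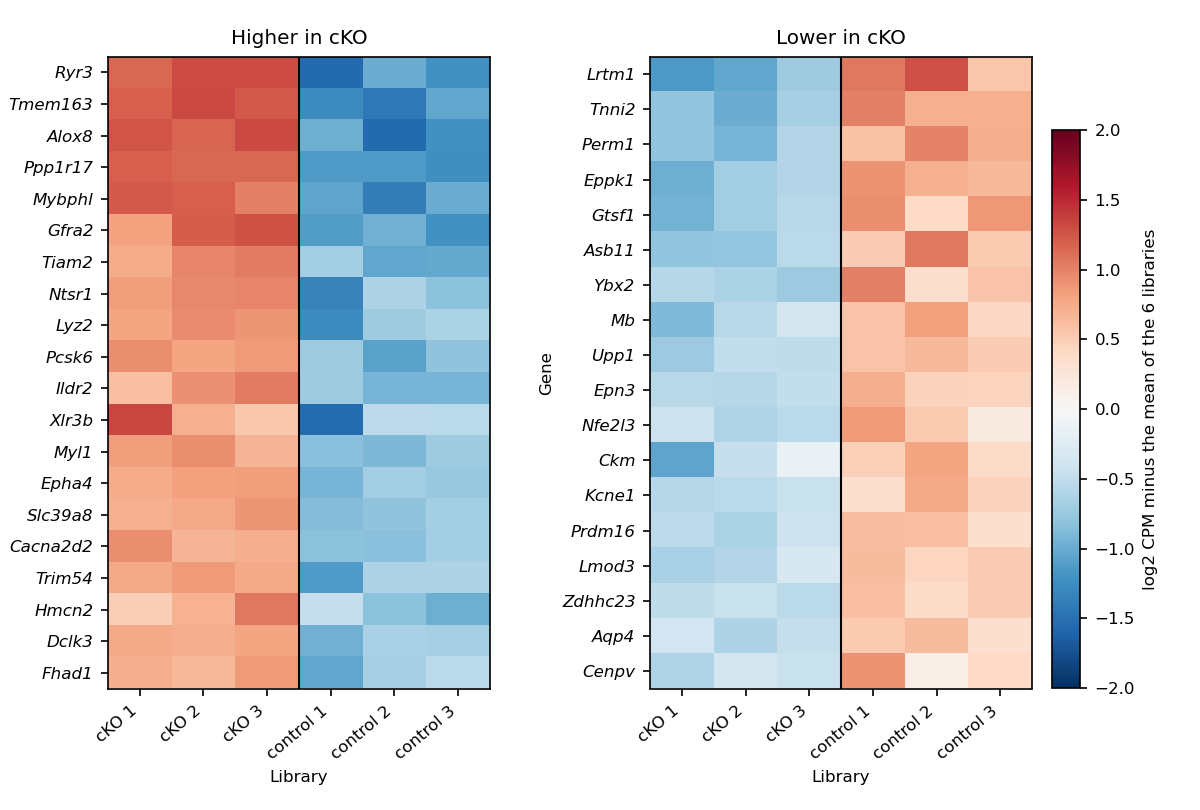
Each row is 1 of the 20 largest increases (left) or of 18 of the 20 largest decreases (right) among called protein-coding genes, and each column a library, with the 3 cKO hearts left of the 3 controls. Colour gives log2 CPM minus the mean of the 6 libraries, red above and blue below it. Ryr3 at the top left is 2.49 higher and Lrtm1 at the top right 1.96 lower in cKO on the log2 scale.

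Promoter sequences are shown for Prdm16 and for those of the 4 largest increases and decreases that the RefSeq promoter table (GRCm38.p6) holds. Apart from Prdm16, the genes were picked by the size of their fold change in each direction, and shared regulation was not tested. That table matched 5 of the 9 genes looked up, and Ryr3, Ppp1r17, Tnni2 and Eppk1 had no entry. Each sequence runs 5′ to 3′ on the gene's strand from 250 bases before to 50 bases after the annotated start. Capitals mark matches to 5 motifs, each searched on both strands, and no matches overlap here. The first motif was TATAAA, the core promoter box. The second was AAGGTCA, which estrogen-related receptors (ERR) bind. The third was CAGCTG, an E-box of basic helix-loop-helix factors. Another E-box, CACGTG, was the fourth. The fifth was GATAAG, which cardiac zinc finger factors of the Gata4 family bind.
Prdm16, chr4:154636824-154637123, minus strand: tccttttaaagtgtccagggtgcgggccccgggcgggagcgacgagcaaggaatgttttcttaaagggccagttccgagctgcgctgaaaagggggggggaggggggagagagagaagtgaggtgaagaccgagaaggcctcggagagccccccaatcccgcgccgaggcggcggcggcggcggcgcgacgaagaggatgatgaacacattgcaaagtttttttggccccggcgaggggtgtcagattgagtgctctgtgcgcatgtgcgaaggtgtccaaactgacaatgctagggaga
Tmem163, chr1:127677972-127678271, minus strand: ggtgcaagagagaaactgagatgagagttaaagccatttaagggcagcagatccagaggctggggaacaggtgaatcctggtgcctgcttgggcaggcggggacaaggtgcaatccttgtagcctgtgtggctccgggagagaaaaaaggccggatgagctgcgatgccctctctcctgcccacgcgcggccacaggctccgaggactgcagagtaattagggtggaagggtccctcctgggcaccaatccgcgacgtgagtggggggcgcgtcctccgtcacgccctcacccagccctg
Alox8, chr11:69197794-69198093, minus strand: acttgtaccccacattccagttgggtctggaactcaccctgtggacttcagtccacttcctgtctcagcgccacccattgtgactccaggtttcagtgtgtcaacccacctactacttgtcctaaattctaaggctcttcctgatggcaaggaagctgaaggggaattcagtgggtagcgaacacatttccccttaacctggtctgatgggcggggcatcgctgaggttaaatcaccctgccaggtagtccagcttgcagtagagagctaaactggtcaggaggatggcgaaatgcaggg
Lrtm1, chr14:29017958-29018257, plus strand: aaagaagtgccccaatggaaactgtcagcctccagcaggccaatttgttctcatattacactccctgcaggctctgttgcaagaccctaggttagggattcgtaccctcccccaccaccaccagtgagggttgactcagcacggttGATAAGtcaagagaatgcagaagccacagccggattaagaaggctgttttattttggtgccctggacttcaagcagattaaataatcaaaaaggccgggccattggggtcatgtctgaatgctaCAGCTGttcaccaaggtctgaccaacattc
Perm1, chr4:156215677-156215976, plus strand: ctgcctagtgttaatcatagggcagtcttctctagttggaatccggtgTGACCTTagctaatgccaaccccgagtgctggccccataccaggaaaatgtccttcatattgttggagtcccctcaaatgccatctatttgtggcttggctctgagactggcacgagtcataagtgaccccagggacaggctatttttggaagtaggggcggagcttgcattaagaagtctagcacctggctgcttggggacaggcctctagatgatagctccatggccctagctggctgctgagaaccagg

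The Perm1 window held the ERR motif, read as TGACCTT on the sense strand 202 bases before the start. The Lrtm1 window held GATAAG 104 bases before the start and CAGCTG 21 bases after it. The Prdm16, Tmem163 and Alox8 windows held none of the 5 letter strings. Among 32851 RefSeq promoters of the same 300 bases, AAGGTCA occurred in 4.7%, GATAAG in 7.4%, CAGCTG in 16.3%, CACGTG in 7.2% and TATAAA in 13.6%, so the matches are descriptions of these windows only.

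The comparison asked whether the genes that mark the compact wall, the trabeculae and the chambers changed. Counts of called list members here and below stand against 1.96% of all genes that rose and 2.07% that fell. Without control 1 these shares were 3.28% and 3.25%. The lists were written with earlier results of these data, on the ventricles and on single genes, known. A count above these shares is therefore not independent support. Of 8 regulators of the compact wall, Mycn and Hey2 fell and Ccnd2 rose. Mycn, a growth regulator of compact cardiomyocytes, had 27.84, 25.7 and 29.98 CPM in cKO hearts and 47.62, 43.72 and 43.19 CPM in control hearts (log2 -0.69, SE 0.07, adjusted p = 0.00334). Hey2, a transcriptional repressor of the compact wall, had 94.45, 76.7 and 93.58 CPM in cKO hearts and 110.5, 124.4 and 116.2 CPM in control hearts (log2 -0.41, SE 0.09, adjusted p = 0.0483). The groups were apart for both genes, as for all 773 called genes. The call of Mycn was held, and that of Hey2 was lost without any 1 library other than control 1. In length-scaled counts neither gene was called (adjusted p = 0.0859 for Mycn and 0.195 for Hey2). Ccnd2, a D-type cyclin, had 786.5, 727.8 and 759 CPM in cKO hearts and 414.6, 426.5 and 424.7 CPM in control hearts (log2 0.84, SE 0.04, adjusted p = 9.50e-05). This held call was lost in length-scaled counts (log2 0.03, adjusted p = 0.982), and in length-scaled counts without control 1 it was called (log2 0.70, adjusted p = 0.0264). Tbx20, Foxm1, Ccnd1, Nkx2-5 and Bmpr1a were not called.

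Among 10 trabecular genes Nppa was the only one called, and it rose. This gene for atrial natriuretic peptide, which trabecular and atrial cardiomyocytes share, had 1957, 2755 and 2388 CPM in cKO hearts and 1377, 1100 and 1403 CPM in control hearts (log2 0.87, SE 0.13, adjusted p = 0.0138). Every cKO heart lay above every control, as in each called increase. The call was lost without cKO 2, cKO 3 or control 3. Nppb, the gene of the brain-type natriuretic peptide, had 59.46, 82.51 and 78.29 CPM in cKO hearts and 77.98, 57.14 and 86.45 CPM in control hearts, with overlapping groups (log2 -0.01, adjusted p = 0.987). Gja5, Bmp10 and Irx3 were not called (log2 -0.29, 0.05 and -0.54).

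Atrial and ventricular cardiomyocyte markers moved in opposite directions. Of 17 atrial markers 10 rose and none fell, with a median log2 fold change of 0.58 against 0.015 for all genes, and of 8 ventricular markers 5 fell and none rose, with a median of -0.34. Both counts were the same without control 1. Atrial markers summed to 6306 to 6529 TPM in cKO hearts and 4411 to 4982 TPM in control hearts, and ventricular markers to 15660 to 16340 TPM in cKO hearts and 19330 to 20030 TPM in control hearts. The share of atrial tissue in each library was not tested. Tbx5, a T-box factor of atria and left ventricle, had 89.62, 88.41 and 90.29 CPM in cKO hearts and 53.07, 55.77 and 58.64 CPM in control hearts (log2 0.68, SE 0.05, adjusted p = 0.00116). Dkk3, a secreted protein of the dickkopf family, had 293.7, 285.4 and 303.3 CPM in cKO hearts and 115.2, 102.2 and 108.9 CPM in control hearts (log2 1.44, SE 0.06, adjusted p = 3.95e-05). Myl7, the atrial regulatory light chain, had 634.6, 643.6 and 609.5 CPM in cKO hearts and 406.6, 378.4 and 410.4 CPM in control hearts (log2 0.66, SE 0.05, adjusted p = 6.84e-04). In each of the 3 genes the spread within a group was small beside the gap between groups. Kcnj5 (0.68) and Kcnj3 (0.97), the subunits of the acetylcholine-activated potassium channel, and the potassium channel gene Kcnk3 (0.61) also rose, with Stard10 (0.58), Pam (0.31) and the orphan receptor Nr2f2 (0.29). Calls of Tbx5, Dkk3, Myl7, Kcnj5 and Mybphl were held. Those of Kcnk3 and Stard10 were lost without any 1 cKO library, that of Nr2f2 also without control 3, that of Pam without cKO 2, cKO 3, control 2 or control 3, and that of Kcnj3 without any 1 library other than control 1. In length-scaled counts the held calls of this list were kept. Those of Kcnk3, Kcnj3, Stard10, Pam and Nr2f2 were lost there (adjusted p from 0.089 for Pam to 0.324 for Stard10). Myl4, Sln, Kcna5, Bmp10, Angpt1 and Nr2f1 were not called.

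On the ventricular side, Myl2, the ventricular regulatory light chain, had 2802, 2871 and 2845 CPM in cKO hearts and 3624, 3539 and 3597 CPM in control hearts (log2 -0.34, SE 0.03, adjusted p = 0.00201). Myl3, the ventricular essential light chain, had 1162, 1195 and 1222 CPM in cKO hearts and 1666, 1653 and 1623 CPM in control hearts (log2 -0.47, SE 0.04, adjusted p = 0.00113). Irx4, an iroquois factor of the ventricles, had 54.4, 52.87 and 57.47 CPM in cKO hearts and 68.24, 68.55 and 73.47 CPM in control hearts (log2 -0.35, SE 0.06, adjusted p = 0.0157). These decreases were small, and in all 3 genes the groups were apart, as in each of the 773 called genes. Myh7, the slow myosin heavy chain, fell by 0.32 on the log2 scale (adjusted p = 0.0394). Calls of Myl2 and Myl3 were held, that of Irx4 was lost without any 1 cKO library or control 3, and that of Myh7 without any 1 library other than control 1. In length-scaled counts Myl2, Myl3 and Myh7 were called. Irx4 (log2 -0.18, adjusted p = 0.623) and Hey2 of this list (adjusted p = 0.195) were not.

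Of 35 cardiac transcription factors 4 rose and 4 fell. Beside Tbx5, the rises were in Gata5 (log2 0.54), Tbx3 (0.36), a repressor of the working myocardium program in the conduction system, and Nr2f2, and the falls in Hopx (-0.37), Casz1 (-0.33), Irx4 and Hey2. Tbx5 alone of these 8 calls was held. Gata4 had 261.7, 269.1 and 269 CPM in cKO hearts and 323.4, 258.6 and 290.8 CPM in control hearts, and was not called (log2 -0.13, adjusted p = 0.459).

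**Figure D3:**
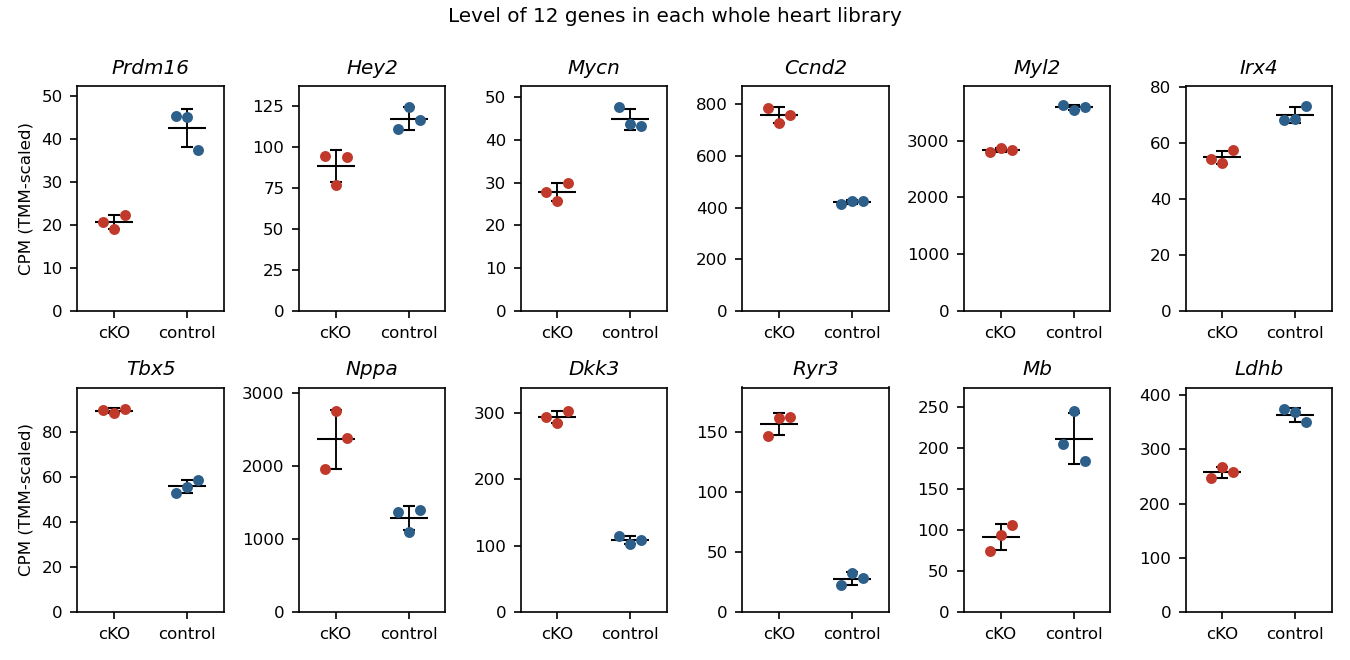
Each panel gives the TMM-scaled CPM of 1 gene in the 3 cKO (red) and 3 control (blue) whole hearts, with a black line at the group mean and bars of 1 SD, on axes that start at 0. Prdm16, Hey2, Mycn, Myl2, Irx4, Mb and Ldhb lie lower in all 3 cKO hearts, and Ccnd2, Tbx5, Nppa, Dkk3 and Ryr3 higher.

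Among 49 sarcomere and Z disc genes 4 rose and 11 fell, with a median of -0.05, against 1.96% and 2.07% of all genes. The 4 that rose were Myl1, Mybphl and Myl7, described above, and Xirp2 (1.05), a Xin actin-binding protein. The falls included Tnni2 and Lmod3, the light chains Myl2 and Myl3, the slow inhibitory troponin Tnni1 (-0.28), the cardiac troponins Tnnc1 (-0.28) and Tnnt2 (-0.20), the skeletal actin Acta1 (-0.51) and the myosin Myh7b (-0.32). Cardiac actin Actc1 had 6021, 6891 and 6761 CPM in cKO hearts and 7285, 6597 and 7518 CPM in control hearts, and was not called (log2 -0.12, adjusted p = 0.403). Of the 15 calls 7 were held, those of Myl1, Mybphl, Myl7, Myl2, Myl3, Tnni2 and Lmod3. Myh8, a perinatal skeletal myosin, had 4.034, 7.076 and 6.085 CPM in cKO hearts and 1.749, 1.873 and 1.498 CPM in control hearts (log2 1.75, adjusted p = 0.00899), a call lost without cKO 2, cKO 3 or control 3. All 6 tested members of the skeletal muscle list, Myh8 included, had positive fold changes (median 0.96, or 0.53 without control 1). Myh8 was the only one called. Myh3, an embryonic skeletal myosin, had 0.3842, 1.086 and 0.4901 CPM in cKO hearts and 0.02611, 0.1756 and 0.206 CPM in control hearts (log2 2.20, adjusted p = 0.186), and Myog, a skeletal muscle determination factor, had 0.3842, 1.032 and 0.4394 CPM in cKO hearts and 0.07832, 0.3121 and 0.412 CPM in control hearts (log2 1.18, adjusted p = 0.448). The list summed to 7.028 to 8.661 TPM in cKO hearts and 5.017 to 6.524 TPM in control hearts, and Myod1, Myf5 and Pax7 were too low to be tested. The part of skeletal muscle cells in these differences was not tested.

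Of 29 calcium handling genes 4 rose and 1 fell (median 0.06), and of 19 potassium channel genes 5 rose and 3 fell (median 0.17). Among all genes 1.96% rose and 2.07% fell. Ryr3 was the held increase in the first list, while Ryr2, the main cardiac release channel, had 484.9, 463.6 and 496.2 CPM in cKO hearts and 482.2, 560.1 and 535.4 CPM in control hearts, and Atp2a2, the cardiac calcium pump of the sarcoplasmic reticulum, 1681, 1709 and 1780 CPM in cKO hearts and 1728, 1689 and 1877 CPM in control hearts. The groups overlapped for both. Abcc8, a sulfonylurea receptor subunit of the ATP-sensitive potassium channel that is prominent in atria, had 18.84, 25.01 and 27.16 CPM in cKO hearts and 9.189, 8.857 and 8.035 CPM in control hearts (log2 1.45, SE 0.14, adjusted p = 0.00256), and its paralog Abcc9 rose by 0.53. Kcne1, the beta subunit of the slow delayed rectifier, had 22.6, 23.13 and 24.66 CPM in cKO hearts and 42.74, 57.22 and 46.32 CPM in control hearts (log2 -1.06, SE 0.11, adjusted p = 0.00285). Its pore-forming partner Kcnq1 fell by 0.65 (adjusted p = 0.00767) and Kcnh2, the pore of the rapid delayed rectifier, by 0.27 (adjusted p = 0.0246). Calls of Abcc8, Kcne1 and Kcnj5 were held. In length-scaled counts Abcc8 and Kcne1 were not called (adjusted p = 0.164 and 0.0556). The call of Kcnq1 was lost without cKO 1 or cKO 3, and that of Abcc9 without cKO 2, cKO 3 or control 3. That of Kcnh2 was lost without any 1 cKO library or control 3.

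Of 19 genes of the conduction system 4 rose and 1 fell (median 0.15), against 1.96% and 2.07% of all genes. Cacna2d2 had 328.8, 277.3 and 288.2 CPM in cKO hearts and 98.58, 96.55 and 108.2 CPM in control hearts (log2 1.56, SE 0.08, adjusted p = 9.46e-05). Scn10a, a sodium channel of sensory neurons whose locus has been linked to cardiac conduction, had 7.7, 9.556 and 9.566 CPM in cKO hearts and 3.107, 3.59 and 2.903 CPM in control hearts (log2 1.48, SE 0.15, adjusted p = 0.003). Cacna1g, a T-type calcium channel of pacemaker cells, rose by 0.76 on the log2 scale (adjusted p = 0.00796), and Gja1, the connexin of working myocardium, fell by 0.43 (adjusted p = 0.0205). The pacemaker channel gene Hcn4 had 49.45, 48.87 and 43.07 CPM in cKO hearts and 56.08, 41.24 and 44.39 CPM in control hearts, and was not called. Calls of Cacna2d2 and Scn10a were held, that of Cacna1g was lost without cKO 2 or cKO 3, and that of Gja1 without cKO 1, cKO 2 or control 3.

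Genes of energy metabolism were lower across several pathways, each by a small amount. All 26 genes of the tricarboxylic acid cycle and pyruvate dehydrogenase had negative fold changes, and 18 of them fell (median log2 -0.27, lowest -0.35). Of 33 genes of fatty acid uptake and oxidation 15 fell and none rose (median -0.32). Of 29 glycolysis genes 13 fell and none rose (median -0.21), against 2.07% of all genes that fell. Without control 1 the decreases numbered 22, 18 and 15 (3.25% of all genes), with 1 rise among the glycolysis genes. General cardiomyocyte markers moved the same way: 9 of 10 had negative fold changes and 2 fell, Tnnc1 and Tnnt2 (median -0.20), and 4 fell without control 1. The part of cardiomyocyte content in the metabolic differences was not tested. The 13 proteins encoded by mitochondrial DNA gave no calls (median 0.07), and neither did 30 cytosolic ribosomal protein genes (median -0.11).

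Ldhb, the lactate dehydrogenase subunit of oxidative muscle, had 247.6, 267.8 and 258.6 CPM in cKO hearts and 373.8, 367.6 and 349.2 CPM in control hearts (log2 -0.49, SE 0.05, adjusted p = 0.00251). Acadm, the medium-chain acyl-CoA dehydrogenase, had 117, 127.9 and 126.8 CPM in cKO hearts and 159.8, 170.4 and 174.2 CPM in control hearts (log2 -0.44, SE 0.06, adjusted p = 0.0068). Cs, the citrate synthase that opens the cycle, had 502.6, 511 and 520.2 CPM in cKO hearts and 628.6, 624.4 and 647.5 CPM in control hearts (log2 -0.31, SE 0.04, adjusted p = 0.00501). In these 3 genes every cKO heart lay below every control heart, as in each called decrease. In length-scaled counts Ldhb and Acadm were called (adjusted p = 0.0442 and 0.0241) and Cs was not (adjusted p = 0.0601). Acaa2 (-0.52), Crat (-0.51), Eci1 (-0.51), Acacb (-0.50) and Acads (-0.42) of the fatty acid list and Gys1 (-0.43), the muscle glycogen synthase, also had held calls. None of these genes was called in length-scaled counts (adjusted p from 0.0684 for Crat to 0.4 for Acads). Cpt1b, the muscle carnitine palmitoyltransferase, fell by 0.47 (adjusted p = 0.01), a call lost without any 1 cKO library or control 3. Cd36, a fatty acid transporter also made by endothelium, had overlapping groups (log2 -0.06, adjusted p = 0.862). Of the 18 calls in the tricarboxylic acid cycle list, that of Cs was the only one held.

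In the respiratory chain, 5 of 37 complex I genes, 7 of 14 genes of complexes II and III and cytochrome c, 3 of 16 complex IV genes and 5 of 16 ATP synthase genes fell, and none rose. Their medians were -0.23, -0.30, -0.27 and -0.24. Of all genes tested 2.07% fell. Without control 1 the decreases in these lists numbered 9, 7, 7 and 7 (3.25% of all genes), and 2 complex IV genes rose. Sdha of complex II had 397, 412.3 and 415.2 CPM in cKO hearts and 527.6, 517.1 and 519.7 CPM in control hearts (log2 -0.35, SE 0.04, adjusted p = 0.00344). Cyc1 of complex III had 200.5, 215.8 and 215.8 CPM in cKO hearts and 291.5, 266.6 and 290.3 CPM in control hearts (log2 -0.42, SE 0.05, adjusted p = 0.00656). Both calls were held, with that of Uqcrc1 (-0.38), and the other 17 calls of these 4 lists were not. In length-scaled counts Cyc1 was called (adjusted p = 0.0257), and Sdha and Uqcrc1 were not (adjusted p = 0.35 and 0.0984).

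Among 21 regulators of mitochondrial content and function, 4 fell and none rose. Perm1 is described above, and the others were Ppargc1b (-0.61), a PGC-1 coactivator, Esrrg (-0.42), an estrogen-related receptor, and Mfn2 (-0.26), a mitofusin. Ppargc1a had 82.89, 77.37 and 85.02 CPM in cKO hearts and 95.05, 127.7 and 112 CPM in control hearts (log2 -0.45, adjusted p = 0.0547), and it fell without control 1 (log2 -0.55, adjusted p = 0.00385). Mb, the oxygen carrier myoglobin, had 74.87, 94.09 and 106.7 CPM in cKO hearts and 205.5, 245.4 and 184.4 CPM in control hearts (log2 -1.21, SE 0.14, adjusted p = 0.00501). Ckm, the muscle creatine kinase, had 38.34, 57.88 and 72.96 CPM in cKO hearts and 110.9, 138.4 and 103.8 CPM in control hearts (log2 -1.06, SE 0.22, adjusted p = 0.0398). The cKO hearts varied for both genes but stayed below every control heart, as in each called decrease. Calls of Perm1 and Mb were held, whereas that of Ckm was lost without cKO 1, cKO 2, control 2 or control 3. None of the 16 measured genes of the brown fat program was called with all 6 libraries, and without control 1 Ppargc1a and Cox7a1 (-0.45, adjusted p = 0.0195) fell. The gene Ucp1, the uncoupling protein of brown fat, was too low to be tested.

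**Figure D4:**
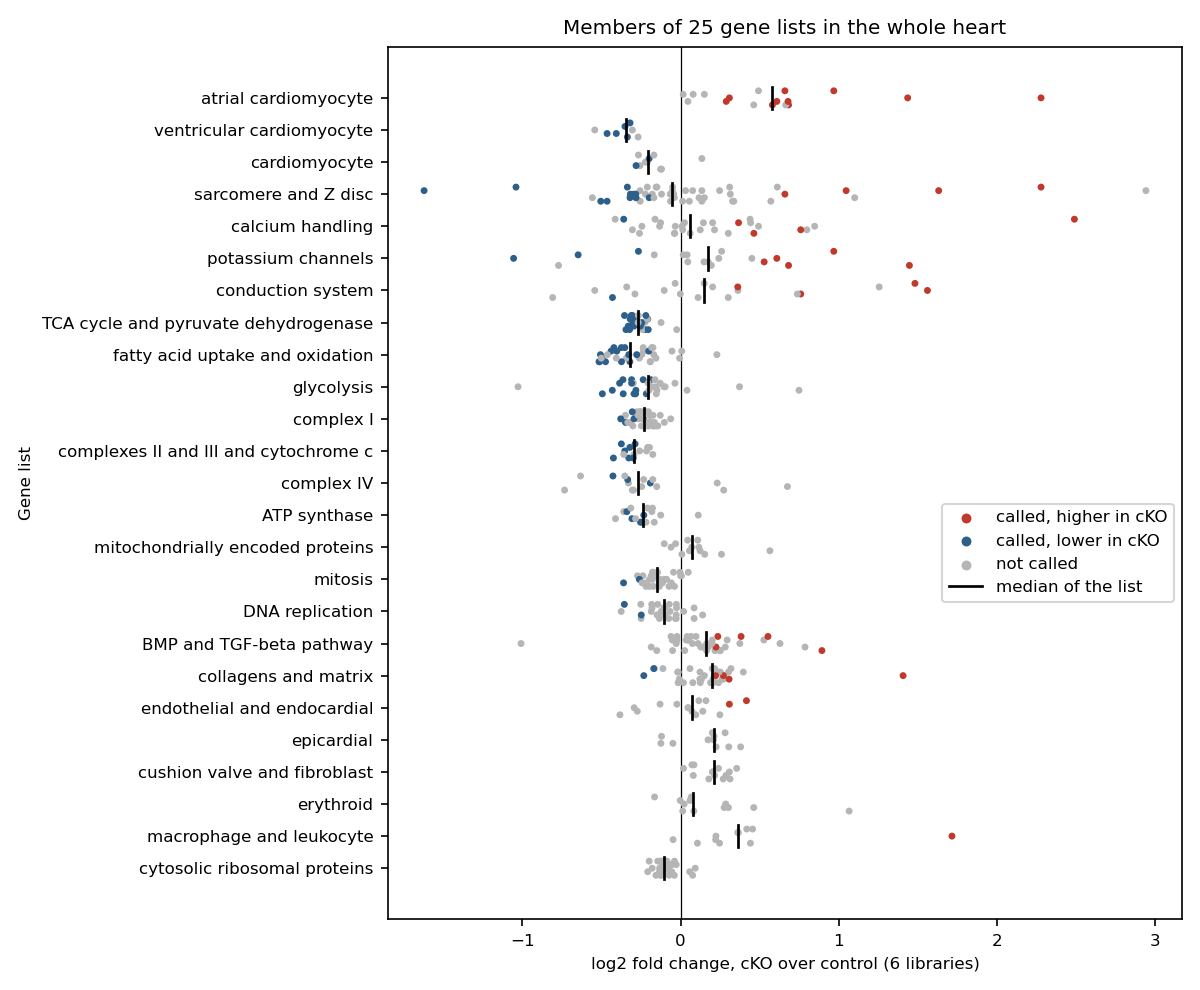
Each point is a gene's log2 fold change, cKO over control, in the fit of the 6 whole hearts, grouped by 25 of the gene lists, with called increases in red, called decreases in blue, other members in grey and a black line at each median. Atrial markers have a median of 0.58, ventricular markers -0.34 and the tricarboxylic acid cycle genes -0.27. Some genes belong to more than 1 list.

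Most genes of the cell cycle had small negative fold changes, and few were called. Of 30 mitosis genes 2 fell, Aurka (-0.36) and Cenpa (-0.26), and of 30 DNA replication genes 2 fell, Cdt1 (-0.36) and Rrm2 (-0.25), with medians of -0.15 and -0.10, against 2.07% of all genes that fell. Negative fold changes were found in 27 of the 30 mitosis and 26 of the 30 replication genes. Without control 1 these lists had 7 and 4 falls, against 3.25% of all genes. The proliferation marker Mki67 had 591, 603.1 and 601.7 CPM in cKO hearts and 573.5, 645.6 and 652.3 CPM in control hearts, with overlap. The cyclin-dependent kinase inhibitor Cdkn1a had 25.58, 30.33 and 30 CPM in cKO hearts and 21.93, 21.4 and 18.28 CPM in control hearts (log2 0.48, SE 0.10, adjusted p = 0.0383), and Zmat3, another target of p53, rose by 0.29. None of these 6 calls was held.

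Of 41 genes of the BMP and TGF-beta pathways 5 rose and none fell (median 0.16), against 1.96% of all genes that rose. Without control 1, 9 rose, against 3.28% of all genes. The rises were in the ligands Bmp2 (0.38) and Tgfb2 (0.22), the receptor Bmpr1b (0.89), the signal transducer Smad9 (0.55) and the secreted follistatin-like protein Fstl1 (0.23), and none of these calls was held. In the Notch pathway, Jag2 (-0.39) and Hey2 fell among 20 genes (median 0.01). Among 27 neuregulin, FGF, IGF and related growth signals 4 rose and 3 fell, against 1.96% and 2.07% of all genes. Nrg2, a neuregulin, had 2.561, 2.787 and 2.214 CPM in cKO hearts and 0.496, 0.5072 and 0.9739 CPM in control hearts (log2 1.92, SE 0.33, adjusted p = 0.021), and its family member Nrg1 (0.43) and the receptor Erbb4 (0.38) rose with Igf1 (0.39). Igfbp3, an IGF-binding protein, had 29.2, 30.46 and 33.65 CPM in cKO hearts and 63.44, 59.34 and 53.58 CPM in control hearts (log2 -0.92, SE 0.08, adjusted p = 0.00185), and Igfbp2 (-0.58) and Vegfa (-0.36) fell as well. Igfbp3 had the held call among these 7. In length-scaled counts Igfbp3 was not called (adjusted p = 0.0532). Plxna4 (0.53), a semaphorin co-receptor, and Sema6d (0.41), a transmembrane semaphorin known from the growth of the ventricular wall in chick, rose with held calls, and among Wnt ligands and inhibitors Dkk3 and Wnt5a (0.48) rose and Nkd2 (-0.67) fell.

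Of 24 genes of muscle stress and hypoxia 2 rose, Nppa and the vasoactive peptide gene Adm (0.71), and 6 fell, Acta1, Mt1 (-0.66), Vegfa, Hspb7 (-0.36), Egln1 (-0.29) and the glucose transporter gene Slc2a1 (-0.28). None of these 8 calls was held, and of all genes 1.96% rose and 2.07% fell. Ankrd1, a titin-associated stress protein, had 843.4, 1064 and 1001 CPM in cKO hearts and 813.6, 728.2 and 776 CPM in control hearts (log2 0.33, adjusted p = 0.0858). None of 20 immediate early genes was called (median -0.20), and without control 1 Nr4a1 and Atf3 fell (log2 -0.39 and -0.33, adjusted p = 0.0305 and 0.0432), while of 22 genes of the integrated stress response Shmt2 fell (-0.29).

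Markers of non-muscle heart cells and matrix genes were mostly on the positive side, with few calls. Of 36 collagen and matrix genes 4 rose and 2 fell (median 0.20), against 1.96% and 2.07% of all genes, and 28 had positive fold changes. Col8a1, a short-chain collagen, had 11.62, 11.64 and 10.26 CPM in cKO hearts and 3.159, 5.326 and 4.12 CPM in control hearts (log2 1.41, SE 0.19, adjusted p = 0.0082), a call lost without cKO 1, cKO 2 or control 3. Of 15 endothelial and endocardial markers Npr3, the natriuretic peptide clearance receptor (0.42), and Tek (0.31) rose, the first with a held call. Npr3 was not called in length-scaled counts (adjusted p = 0.0539). None of 11 epicardial, 14 cushion, valve and fibroblast, and 12 erythroid markers was called with all 6 libraries. The medians of these 3 lists were 0.21, 0.21 and 0.08, and all 14 cushion, valve and fibroblast markers had positive fold changes. Without control 1 the epicardial marker Wt1 rose (log2 0.38, adjusted p = 0.0167), as did the mesenchymal markers Prrx1 (0.34, adjusted p = 0.0488) and Col1a1 (0.35, adjusted p = 0.0401). Of 8 smooth muscle and pericyte markers Des rose by 0.22 and Cspg4 fell by 0.47, neither with a held call. The 5 megakaryocyte, 7 neural, 2 liver and 3 lung markers tested gave no calls.

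The macrophage and leukocyte list held 1 large change in 1 gene. Lyz2, a lysozyme of macrophages, had 102.3, 113.4 and 108.5 CPM in cKO hearts and 24.3, 36.13 and 38.11 CPM in control hearts (log2 1.72, SE 0.15, adjusted p = 0.00192), and its call was held. The other 10 markers of the list were not called and ranged from -0.05 to 0.46 on the log2 scale. Csf1r, the receptor that macrophages depend on, had 41.53, 53.14 and 40.99 CPM in cKO hearts and 33.89, 35.62 and 31.97 CPM in control hearts (log2 0.42, adjusted p = 0.0768). Adgre1 had 8.533, 10.84 and 7.961 CPM in cKO hearts and 10.49, 7.335 and 5.282 CPM in control hearts. The TPM of all 11 markers summed to 218.6 to 256 in cKO hearts and 117.5 to 121.2 in control hearts, Lyz2 included. The part of macrophage number in the Lyz2 difference was not tested.

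Whether these changes differed from those of an isolated ventricle was tested in a fit of all 22 libraries, with each tissue's cKO effect estimated from its own controls. In that fit 3786 of 17560 genes differed in the left ventricle (21.6%, with 10.8% higher and 10.8% lower) and 1528 in the right (8.7%, with 5.08% higher and 3.62% lower). Of the 773 genes called in the whole heart, 712 (92.1%) were called in the left ventricle and 495 (64%) in the right, all in the same direction, and 476 in both. These were 18.8% of the left and 32.4% of the right ventricle calls. Another 42 genes were called in neither ventricle, among them Tbx3, Bmp2, Igf1, Cacna1g, Sox18 and Xlr3b, and the difference from either ventricle was not called for any of the 42.

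The cKO effect in the whole heart differed from that in the left ventricle for 34 of 17560 genes (0.194%), 14 with a higher (0.0797%) and 20 with a lower value (0.114%) in the whole heart. For Hey2 the log2 fold change was -0.41 in the whole heart and -1.14 in the left ventricle, a difference of 0.72 (adjusted p = 0.00551), and it was -0.04 in the right ventricle. Aqp4 had -0.99 in the whole heart and -2.57 in the left ventricle (difference 1.57, adjusted p = 0.00356). The Notch ligand Jag1 was 0.26 in the whole heart and -0.44 in the left ventricle (difference 0.69, adjusted p = 0.00769). A smaller value in the whole heart than in the left ventricle was found for Ryr3 (whole heart 2.49, left ventricle 3.42, difference -0.95, adjusted p = 0.0294), Mybphl (2.28 and 2.96, difference -0.69, adjusted p = 0.0278) and Ankrd1 (0.33 and 1.34, difference -1.02, adjusted p = 0.033). Gpx3, a secreted glutathione peroxidase, had 1121, 1190 and 1129 CPM in cKO whole hearts and 473.7, 437.5 and 460 CPM in control whole hearts, a log2 fold change of 1.33 that lay below the 1.85 of the left ventricle (difference -0.53, adjusted p = 0.00769). Without whole heart control 1 the test called 24 genes, and the differences of Mybphl and Ankrd1 were no longer called (adjusted p = 0.0695 and 0.0829). Without whole heart control 2 it called 157, and leaving out any 1 of the other libraries of the 2 tissues gave 12 to 33, the lowest without left ventricle cKO 2.

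No gene's effect differed between the whole heart and the right ventricle in edgeR after adjustment (0%), 1905 genes did at an unadjusted p under 0.05 (10.8%), and DESeq2 called 41. Without whole heart control 2 the test called 149 genes. Of the 17 atrial markers, 10 rose in the whole heart, 11 in the left and 10 in the right ventricle. Of the 8 ventricular markers 5, 7 and 1 fell, and of the 26 tricarboxylic acid cycle genes 18, 25 and 7 fell in the same order of tissues. Of all genes 10.8% rose and 10.8% fell in the left ventricle, and 5.08% rose and 3.62% fell in the right. The counts of list members come from designs with different numbers of libraries and were not tested against each other.

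**Figure D5:**
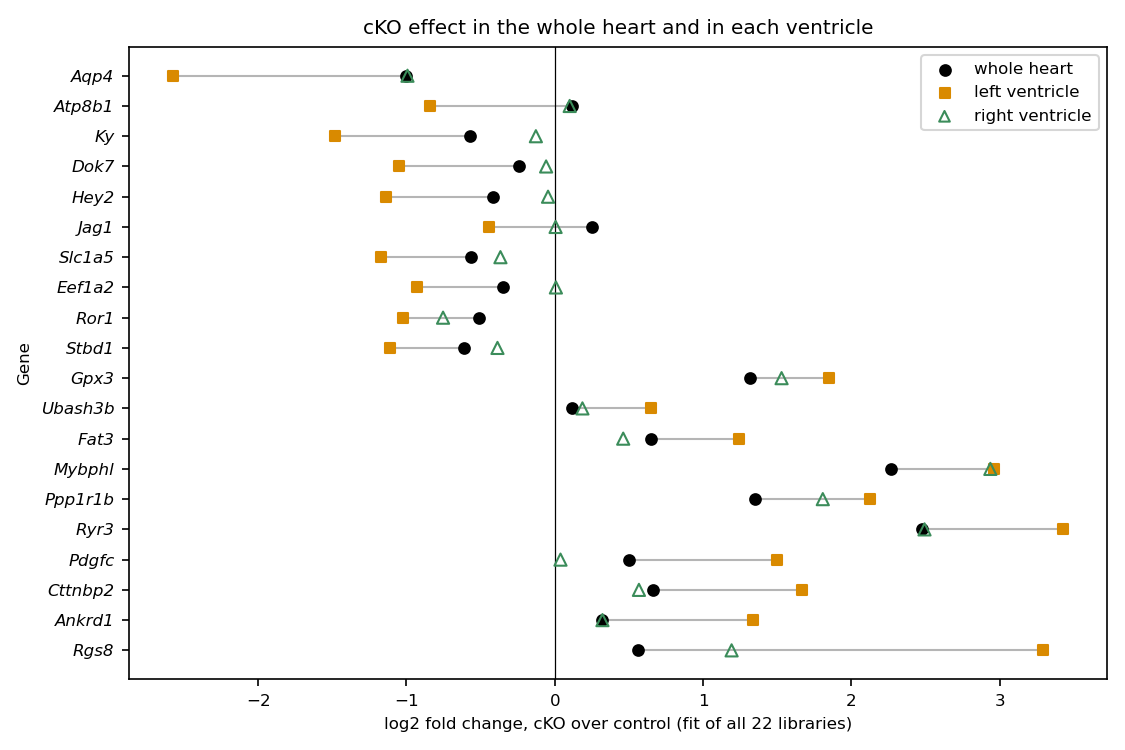
Rows are the genes with the 10 largest called differences in each direction between the whole heart and the left ventricle in their cKO effect. They are protein-coding genes whose log2 CPM averaged 2 or more. The axis gives the log2 fold change, cKO over control, in the fit of all 22 libraries, with black circles for the whole heart, orange squares for the left and green triangles for the right ventricle. For Hey2 the left ventricle lies at -1.14 and the whole heart near -0.41, and for Ryr3 the left ventricle lies at 3.42.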

How the data were processed

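Salmon 1.2.1 is named in the submitters' processing notes, beside DESeq2 1.22.2, GRCm38.p6 and mm10; its settings are not given in the sources used here. The libraries were stranded, per the labels' protocols. The values used are the estimated count and the TPM of each transcript as deposited by the authors. Transcripts were matched without version to GENCODE M21: 140137 of 140658 matched, and the 521 others, 0.186% to 0.204% of whole heart reads, were left out. Estimated counts were summed per gene and rounded, giving 54356 genes. The 6 whole hearts were fitted alone with edgeR 4.0.16 (TMM, filterByExpr, quasi-likelihood F test) under R 4.3.3, and p-values were adjusted by Benjamini-Hochberg over every gene that passed the filter, at a threshold of 0.05. Standard errors are those of the fitted log2 fold change. Differences from each ventricle were contrasts in 1 fit of 22 libraries. Tables were made with Python 3.11.15 and pandas 2.3.3. Alternatives used DESeq2 1.42.0 and limma 3.58.1, other scalings and filters, length-scaled counts and each library left out. The tests across genes were tested on simulated data. Apart from the changes put in, all simulated libraries shared 1 mean profile, so control 1 had no profile of its own. With 6 whole heart libraries, 81% of changes of 1 on the log2 scale were called. For the smaller changes put in it was 39%, and for unchanged genes 0.022%.

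Named genes were Prdm16, the 20 largest called changes in each direction among protein-coding genes whose groups did not overlap and whose log2 CPM averaged 2 or more, the 6 members per list that had the lowest p-values, and the 10 largest called differences in each direction from each ventricle. Other members named beside them were chosen after their values were seen. The comparison and the gene lists were chosen with earlier results of these data known. RNA integrity numbers ran from 6.1 to 10 over the series. Some genes that these rules name are not reported here.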

Additional observations from a re-analysis of the deposited data

Results flagged for a closer look

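The cKO effect differed between the whole heart and the left ventricle for 34 genes, by edgeR's test of the difference itself. The 10 largest such differences in each direction are given here, among protein-coding genes whose log2 CPM averaged 2 or more. They are log2 values, whole heart minus left ventricle. Positive differences were those of Aqp4 (1.57), Atp8b1 (0.96), Ky (0.91), Dok7 (0.81), Hey2 (0.72), Jag1 (0.69), Slc1a5 (0.61), Eef1a2 (0.58), Ror1 (0.51) and Stbd1 (0.50). Negative ones were those of Rgs8 (-2.73), Ankrd1 (-1.02), Cttnbp2 (-1.01), Pdgfc (-1.0), Ryr3 (-0.95), Ppp1r1b (-0.77), Mybphl (-0.69), Fat3 (-0.59), Ubash3b (-0.54) and Gpx3 (-0.53). Without whole heart control 1, the adjusted p stayed under 0.05 for Aqp4, Atp8b1, Hey2, Jag1, Slc1a5, Stbd1, Rgs8, Cttnbp2, Ryr3, Fat3, Ubash3b and Gpx3, and was 0.0588 for Ky, 0.0829 for Dok7 and Ankrd1, 0.0932 for Eef1a2, 0.0808 for Ror1 and Pdgfc, 0.145 for Ppp1r1b and 0.0695 for Mybphl. Rgs8, a regulator of G protein signalling, had log2 fold changes of 0.57 in the whole heart, where it was not called, 3.29 in the left and 1.19 in the right ventricle. The left ventricle also holds more libraries, 4 per group against 3.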

How the results depend on the processing

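The count of 773 genes in the whole heart stayed within 1.5 times with RLE factors or plain library totals, without haemoglobin genes, with no filter or one of 1 CPM in 3 libraries, and with robust estimation. It was 1657 with DESeq2, 1777 with limma voom and quality weights, 2012 in the fit of all 22 libraries (39.9% higher) and 116 with a log2 fold change over 1 in either direction. On TPM, limma gave 82 genes with a pseudocount of 1, 71 with 0.1 and 44 with 1 and no filter, of which 78%, 78.9% and 84.1% were higher. Length-scaled counts gave 133, with 63.2% of calls higher against 48.6%, and 320 also without control 1, an alternative chosen after seeing the data. Leaving out 1 library gave 184 to 1292 genes. The cause of these differences was not tested. The difference from the left ventricle (34 genes) was 67 with the 14 libraries of the 2 tissues, 115 with DESeq2 and 12 to 157 with 1 library left out. The difference from the right ventricle (0 genes) was 41 with DESeq2 and 0 to 149 with 1 library left out.

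Whether the replicate numbers mark pairs could not be settled. Deviations from the group means correlated at -0.038, -0.256 and -0.066 between cKO and control libraries of the same number. Other pairs gave -0.097 to 0.196. With 3 libraries per group the deviations depend on one another, so these values can neither show nor exclude pairing. With a replicate block the whole heart comparison called 218 genes, or 422 on libraries 2 and 3 alone. The same replicate block within tissue gave 24 genes for the difference from the left and 6 for that from the right ventricle. Of 173 genes named in the text, none reversed its direction as a called gene under any of these settings, and 63 lost their call under the replicate block. Among all 773 called genes, 9 had the opposite sign in length-scaled counts.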
